A study of Mus musculus with 4 samples.

Results

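Kruppel-like factors are a family of transcription factors, and 9 of their genes are described here in mouse embryonic stem cells: Klf2, Klf4 and Klf5, which are linked to pluripotency, and Klf1, Klf3, Klf6, Klf9, Klf13 and Klf16. The 9 are among 21774 protein-coding genes of the RefSeq table. For each gene, all peaks were taken that share at least 1 bp with its RefSeq span (build GRCm38.p6, which on these chromosomes is numbered as mm10 is) or with the 10 kb on either side, called the window of the gene below. The cells were of strain 129S4/SvJae, and every library came from cells that overexpress H1foo-GFP, a fusion of the oocyte's linker histone variant, so that both groups of libraries share it. There were 2 ChIP-seq libraries with a rabbit polyclonal antibody to H1foo that was made in-house, and 2 with the mouse monoclonal antibody AE4, which stands for the somatic H1 proteins in this study. The authors deposited 1 peak list per antibody and no value per library. There is therefore no replicate error, no test was made, and all comparisons are descriptions of the H1foo list and the AE4 list. The labels do not say whether the libraries of an antibody came from separate cultures, and do not say whether H1foo is among the proteins that AE4 recognises. Peak lists measure no expression, so the cell type could not be checked against marker genes.

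Members of this family bind GC-rich boxes and CACCC boxes in DNA through zinc fingers at the end of the protein, while the rest of each protein differs and recruits activators or repressors. In mouse embryonic stem cells Klf2, Klf4 and Klf5 help to keep the naive state of self-renewal, and Klf4 is one of the factors used to reprogram fibroblasts into pluripotent cells. Klf1 drives the red blood cell programme, Klf3 is a repressor that works with the corepressor CtBP, and Klf9, Klf13 and Klf16 can recruit the corepressor Sin3a. Linker histones of the H1 type sit on the nucleosome where DNA enters and leaves it, and binding is generally associated with more compact chromatin.

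H1foo peaks were found in the window of 9 of 9 genes, against 66.2% of all protein-coding genes with windows made the same way. AE4 peaks were found at 6 of 9, against 57.1% of all protein-coding genes, and lacked at Klf4, Klf5 and Klf9. These 3 genes had H1foo peaks alone, which was so for 13.6% of all protein-coding genes. The other 6 had peaks of both lists, as did 52.6% of all genes, and none had AE4 peaks alone, as did 4.49%. The windows held 63 H1foo peaks and 28 AE4 peaks, none of them in more than 1 window. Within the genes themselves, H1foo peaks were present at 7 of 9, against 56.1% of all genes, and AE4 peaks at 4 of 9, against 42.7%. The H1foo list is 2.06 times as long as the AE4 list, with 97795 and 47449 peaks on the assembled chromosomes, so a gene has more chances of an H1foo peak. With the H1foo list cut to the length of the AE4 list, 6 of 9 genes kept an H1foo peak. The share of all protein-coding genes that did so was not computed, and the 66.2% is for the complete list. The single H1foo peaks of Klf4, Klf5 and Klf6, ranked 76878, 59280 and 57692 by score, were lost. At equal list length only Klf9 thus had H1foo peaks alone. Klf6 then had an AE4 peak alone, and Klf4 and Klf5 had no peak of either list. The shares of all protein-coding genes in these states at equal length were not computed. Library depth is unknown, so a window without a peak may still have been bound.

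**Figure D1:**
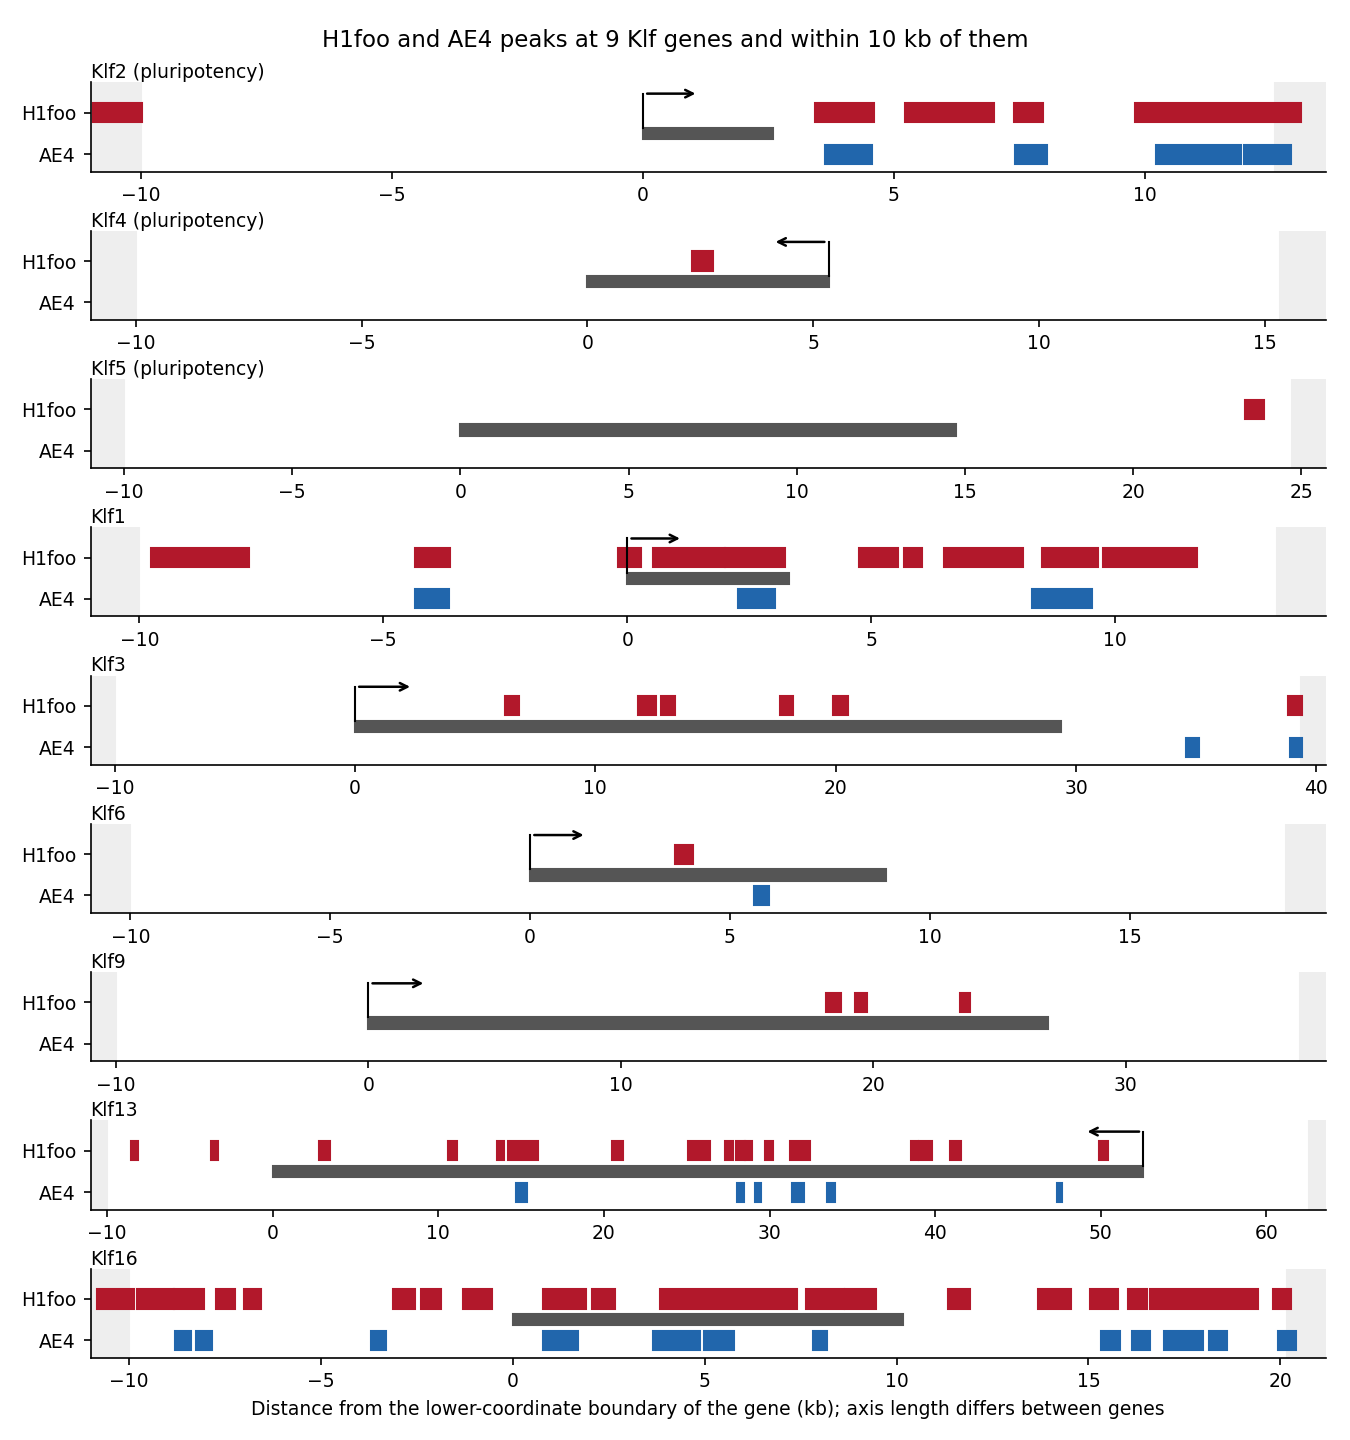
Peaks of H1foo (red) and AE4 (blue) drawn to scale beside each Klf gene (grey bar), by distance in kb from the gene's boundary of lower coordinate; the arrow marks the start site and its direction for the 7 genes in the promoter table, and the shaded margins lie outside the windows. Klf16 and Klf13 carry most of the peaks, Klf4, Klf5 and Klf6 have 1 H1foo peak each, and only the Klf1 start site is covered by a peak.

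Start sites were examined where the promoter table gave them. RefSeq promoter windows of 300 bases (250 before and 50 after the start site, GRCm38.p6) were matched for 7 of the 9 genes, the exceptions being Klf5 and Klf16. Of these, 1 of 7, that of Klf1, overlapped an H1foo peak and 0 of 7 an AE4 peak, against 13.5% and 2.36% of 21263 promoter windows of protein-coding genes, so these counts are near those of genes in general. The Klf1 window is CpG-poor and the windows of Klf2, Klf4 and Klf13 are CpG-rich, which is why these 4 are shown, each 5′ to 3′ on the strand of its gene with every CG dinucleotide in capitals. The windows are chr8:84901732-84902031 on the plus strand for Klf1, chr8:72318812-72319111 on the plus strand for Klf2, chr4:55532426-55532725 on the minus strand for Klf4 and chr7:63938866-63939165 on the minus strand for Klf13.
Klf1: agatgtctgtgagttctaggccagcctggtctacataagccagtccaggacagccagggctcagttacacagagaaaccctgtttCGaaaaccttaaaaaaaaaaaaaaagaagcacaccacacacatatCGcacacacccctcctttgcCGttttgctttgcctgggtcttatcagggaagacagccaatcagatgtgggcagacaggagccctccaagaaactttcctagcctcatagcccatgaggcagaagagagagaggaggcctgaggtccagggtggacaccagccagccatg
Klf2: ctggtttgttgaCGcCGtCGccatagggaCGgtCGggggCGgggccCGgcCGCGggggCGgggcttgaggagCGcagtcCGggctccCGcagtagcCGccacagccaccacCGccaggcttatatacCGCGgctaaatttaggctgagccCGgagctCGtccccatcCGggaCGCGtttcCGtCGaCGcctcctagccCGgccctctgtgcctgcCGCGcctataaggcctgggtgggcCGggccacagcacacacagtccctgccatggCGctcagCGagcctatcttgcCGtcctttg
Klf4: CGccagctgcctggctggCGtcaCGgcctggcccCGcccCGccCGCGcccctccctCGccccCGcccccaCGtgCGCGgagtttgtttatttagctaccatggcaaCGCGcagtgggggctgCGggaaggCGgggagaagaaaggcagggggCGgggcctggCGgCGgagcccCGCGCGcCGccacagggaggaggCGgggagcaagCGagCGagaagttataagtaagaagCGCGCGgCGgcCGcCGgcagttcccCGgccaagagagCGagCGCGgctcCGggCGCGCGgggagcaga
Klf13: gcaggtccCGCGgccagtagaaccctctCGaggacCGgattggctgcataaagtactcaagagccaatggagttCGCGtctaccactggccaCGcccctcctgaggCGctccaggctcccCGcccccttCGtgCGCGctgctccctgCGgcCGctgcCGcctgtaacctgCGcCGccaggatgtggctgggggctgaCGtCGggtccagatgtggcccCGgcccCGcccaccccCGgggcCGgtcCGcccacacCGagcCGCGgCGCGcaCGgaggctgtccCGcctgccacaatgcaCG

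The H1foo peak at Klf1 (chr8:84901802-84902266, score 52.7) covered bases 71 to 300 of the printed Klf1 sequence, 230 bases in all. The score is the authors' value for each peak from the peak caller. Its lowest value was 50 in either list, and its median was 73.2 for H1foo and 63.8 for AE4. The Klf1 window holds 3 CpG and has a GC content of 51.3%. The other 6 windows hold 23 CpG at Klf6, 28 at Klf9, 29 at Klf3, 32 at Klf2, 32 at Klf13 and 40 at Klf4, with GC contents between 63.0% and 76.7%. The median of all promoter windows was 13 CpG, and 94.9% of them had fewer CpG than that of Klf4.

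Across all promoter windows, the share that overlapped an H1foo peak was highest at 5 to 9 CpG, with 22.8%, and was 15.6% at 20 to 24, 11.9% at 25 to 29, 8.17% at 30 to 39 and 2.22% at 40 or more. The class of Klf1, with 0 to 4 CpG, had 9.30%. For AE4 the share was 3.76% in the class of Klf1, 0.547% in that of Klf6, 0.303% in that of Klf3 and Klf9, 0.227% in that of Klf2 and Klf13, and 0% in that of Klf4. An empty promoter window at these 6 genes was thus the common state in their classes for either antibody. The windows were also searched on both strands for the letters CACCC and GGGCGG, which can share bases where they adjoin. CACCC occurred in 5 of the 7 windows (not in those of Klf4 and Klf6) and in 59.5% of all promoter windows. GGGCGG occurred in 5 of the 7 (not in those of Klf1 and Klf9) and in 46.2% of all. Klf3 had most, with 5 CACCC and 6 GGGCGG. Both shares are over all promoter windows, with a median GC content of 56.3%, and were not matched to the CpG class of each Klf window.

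**Figure D2:**
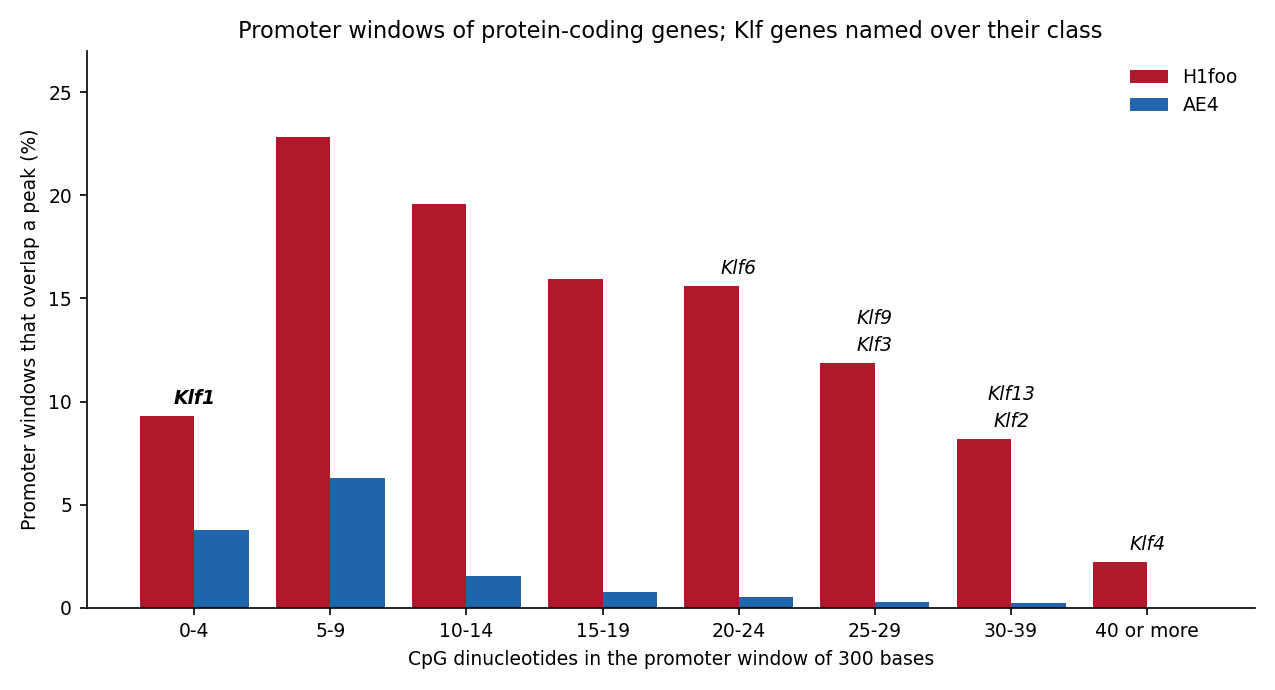
Share of promoter windows of protein-coding genes that overlap an H1foo peak (red) or an AE4 peak (blue), in percent, by the number of CpG in the 300 bases; 7 Klf genes are named over their class, with Klf1, the only one whose window overlaps a peak, in bold. The other 6 lie in the classes from 20 CpG upward, where the H1foo share goes from 15.6% to 2.22%.

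Away from the promoter windows, Klf2 (chr8:72319062-72321654, 2593 bp), a naive pluripotency factor, had the most peaks of the 3 pluripotency genes. It had 5 H1foo and 4 AE4 peaks, or 2.21 and 1.77 per 10 kb of window, and none of them lay in the gene. Beyond its end lay 4 of the H1foo peaks and all 4 AE4 peaks, the nearest of H1foo 845 bp and of AE4 1038 bp away. The highest-scoring of these H1foo peaks, chr8:72328856-72332169, was 3314 bp wide with a score of 523, the 321st highest of the list. It overlapped 2 AE4 peaks with scores of 116 and 100.1. The other H1foo peaks beyond the end scored 199, 206 and 50.7, and the other AE4 peaks 123 and 77.8. The fifth H1foo peak, before the start, scored 72.6 and reached only 35 bp into the window. No other protein-coding gene lies in the window, and the nearest to these peaks was Eps15l1, at 8821 bp from the widest. In the 1 Mb around Klf2 without its window, H1foo had 2.13 and AE4 1.49 peaks per 10 kb, so the window was 1.04 and 1.19 times as dense as its surroundings. Klf2 and Klf1 lie on chromosome 8, where 87.5% of protein-coding genes have an H1foo peak and 84.1% an AE4 peak in their window.

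Klf4 (chr4:55527137-55532475, 5339 bp), the reprogramming factor, had 1 H1foo peak and 0 AE4 peaks. The peak, chr4:55529460-55529925, was 466 bp wide, scored 57.1 and lay in the gene, 2550 bp from the start site. Around it was an empty stretch. The next H1foo peak was 55.1 kb from the gene, and the nearest AE4 peak was 111 kb away, with a score of 50.4. The surrounding 1 Mb held 19 other H1foo peaks and 3 AE4 peaks. For H1foo the window was 2.02 times as dense as these surroundings, a ratio that rests on 1 peak.

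Klf5 (chr14:99298691-99313412, 14722 bp), which acts with Klf2 and Klf4 in self-renewal, had 1 H1foo peak and 0 AE4 peaks. The peak, chr14:99322020-99322596, scored 65.8 and lay 8608 bp from the boundary of higher coordinate, so that the gene itself had no peak of either antibody. The next H1foo peak was 16.0 kb from the gene and the nearest AE4 peak 14.7 kb. Its surroundings held 31 H1foo and 19 AE4 peaks, and with 100 kb on either side Klf5 had 20 and 6 peaks, where Klf4 had 4 and 0. The Klf5 window was 0.897 times as dense as its surroundings for H1foo, again on 1 peak. Klf4 and Klf5 had 0.395 and 0.288 H1foo peaks per 10 kb, close to the median of 0.406 over all protein-coding genes. Klf2 with 2.21 exceeded 79.0% of them.

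Among the other genes, Klf16 (chr10:80567121-80577296), a repressor that binds GC boxes, had the most peaks, 19 of H1foo and 12 of AE4. Its densities of 6.30 and 3.98 per 10 kb were exceeded or matched by 0.257% and 0.592% of protein-coding genes. The gene itself held 5 H1foo and 4 AE4 peaks. The highest-scoring in the gene, the H1foo peak chr10:80570951-80574514, was 3564 bp wide with a score of 587, and 2 AE4 peaks with scores of 132 and 69.4 overlapped it. Many peaks of the window lay in the neighbouring genes. Rexo1 overlapped 7 H1foo and 3 AE4 peaks, and Abhd17a, which encodes a depalmitoylating enzyme, 3 and 4. The highest H1foo score of all 9 windows, 643, belonged to chr10:80583729-80586529 at Abhd17a. The surroundings were dense as well, with 4.59 H1foo and 2.31 AE4 peaks per 10 kb, and the window was 1.37 and 1.72 times as dense as they were.

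Klf1 (chr8:84901982-84905291), the erythroid factor, had 10 H1foo and 3 AE4 peaks. Its 4.29 H1foo peaks per 10 kb were exceeded or matched by 5.63% of protein-coding genes, and its 1.29 AE4 peaks by 13.8%. H1foo peaks covered 50.4% of the window and AE4 peaks 11.5%. The gene held 3 H1foo peaks with scores of 52.7, 129 and 78.7, which together span it nearly from start to end, and 1 AE4 peak with a score of 65.8. The highest-scoring H1foo peaks of the window lay outside the gene, 289 and 376 at Dnase2a (a lysosomal DNase), 237 at Gcdh (of lysine breakdown) and 225 at Mast1. Its surroundings had 2.56 H1foo and 1.91 AE4 peaks per 10 kb, so the window was 1.68 times as dense as they were for H1foo and 0.672 times for AE4.

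Klf13 (chr7:63886351-63938915, 52565 bp), known as an activator of the chemokine gene Ccl5 in T cells, had 17 H1foo and 6 AE4 peaks, of which 15 and 6 lay in the gene. The H1foo peaks followed each other along most of the gene, with the highest scores of 295 (chr7:63900546-63902364), 189 and 168, and the nearest to the start site was 2159 bp from it. The AE4 scores were 86.0, 83.3 and 65.3 at the 3 peaks that overlapped an H1foo peak, and 52.9, 51.4 and 50.4 at the 3 that did not. The Klf13 window was denser than its surroundings, with 2.34 H1foo and 0.827 AE4 peaks per 10 kb against 0.464 and 0.216. The ratios of 5.05 and 3.83 were reached by 4.91% and 7.58% of the genes with a peak in their surroundings. The window also holds E030018B13Rik, which lies inside Klf13 and overlapped 1 of the H1foo and 2 of the AE4 peaks.

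Klf3 (chr5:64803521-64832901), the CtBP-dependent repressor, had 6 H1foo and 2 AE4 peaks. In the gene lay 5 of the H1foo peaks, with scores from 73.3 to 119, and no AE4 peak. The AE4 peaks lay 5203 and 9515 bp beyond its end, with scores of 56.4 and 59.9, and the farther one overlapped the sixth H1foo peak. From the start site of Klf3, the nearest H1foo peak was 6238 bp and the nearest AE4 peak 34.6 kb away. The Klf3 window was 1.65 times as dense as its surroundings for H1foo and 1.67 times for AE4.

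Klf9 (chr19:23141226-23168129), which responds to glucocorticoid and thyroid hormone, had 3 H1foo and 0 AE4 peaks. All 3 lay in the part of the gene away from the start, with scores of 89.5, 51.9 and 53.2. The nearest AE4 peak was 12.6 kb from the gene. The H1foo density of 0.640 per 10 kb was 4.06 times that of the surroundings, a ratio reached by 6.97% of genes.

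Klf6 (chr13:5861489-5870393), a factor induced early by growth signals, had 1 H1foo peak (chr13:5865113-5865553, score 66.8) and 1 AE4 peak (chr13:5867099-5867460, score 51.2). They lay in the gene, without overlapping each other. The surrounding 1 Mb held no other peak of either list, and the next H1foo and AE4 peaks were 682 and 567 kb from the gene. Surroundings without any peak were found for 3.27% of protein-coding genes, and 0.285% had such surroundings and peaks of both lists in their window.

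**Figure D3:**
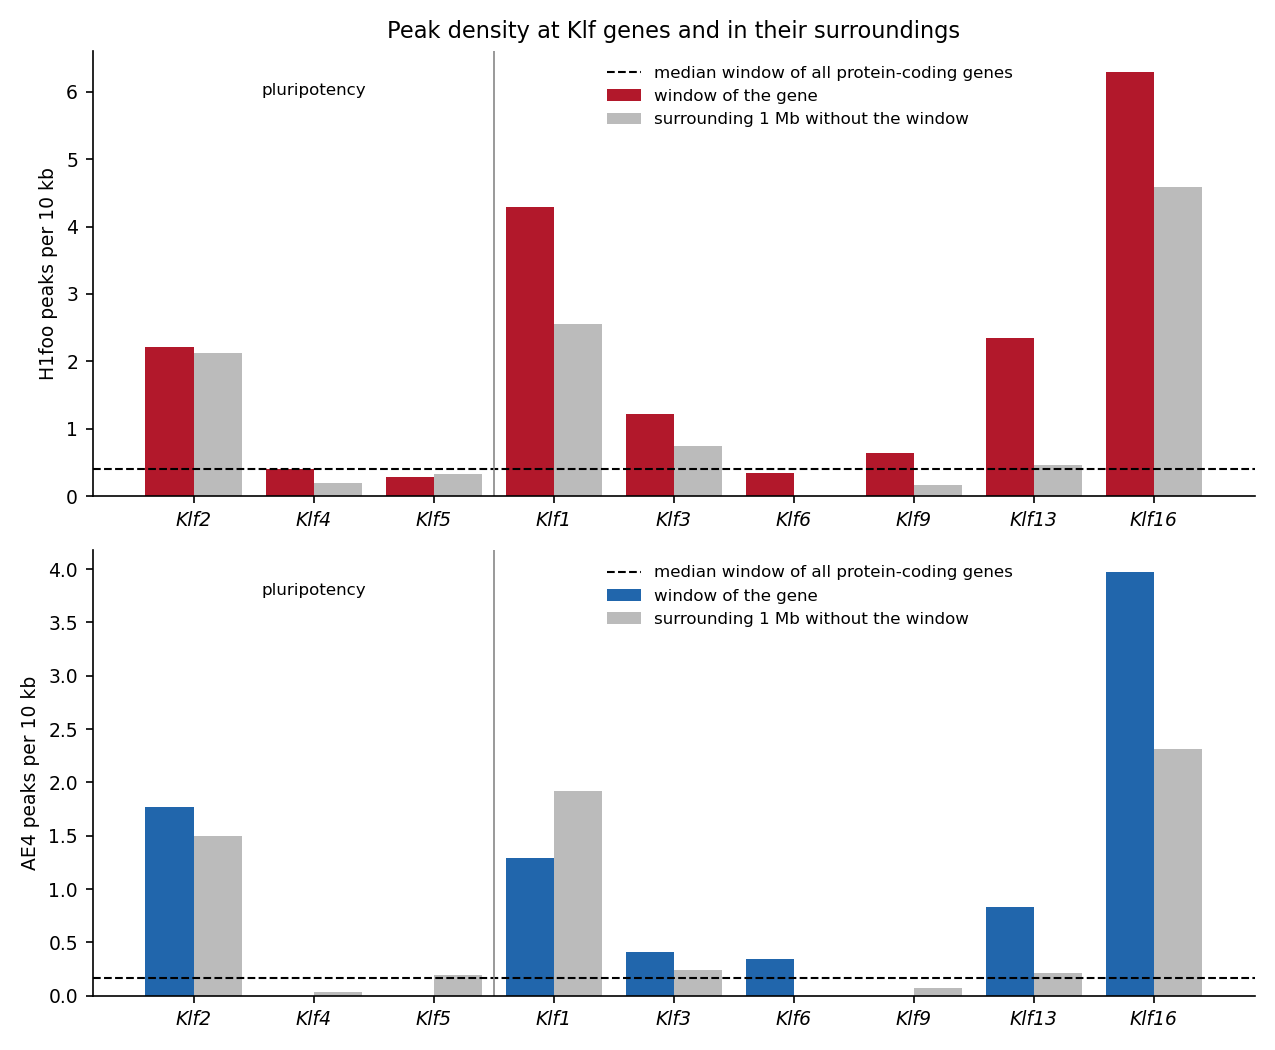
Peaks per 10 kb in the window of each Klf gene (coloured) and in the surrounding 1 Mb without the window (grey), for H1foo (upper panel) and AE4 (lower panel); the dashed line is the median window of all protein-coding genes, 0.406 for H1foo and 0.162 for AE4. Klf2, Klf1 and Klf16 lie in surroundings far above that line, whereas those of Klf13, with 0.464 and 0.216, are close to it. The line is for windows of genes, whereas the grey bars also take in sequence between genes, and no median of surroundings was computed.

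As groups, Klf2, Klf4 and Klf5 had fewer H1foo peaks for their length than the other genes. They had 7 H1foo peaks in 82.7 kb of windows, or 0.847 per 10 kb, against 56 in 251 kb, or 2.23 per 10 kb, for the other 6. Over the windows of all protein-coding genes, where a peak counts once per window, the density was 0.762 for H1foo and 0.351 for AE4. For H1foo the pluripotency genes as a group thus lay slightly above that level, with Klf4 and Klf5 below it, and the other 6 as a group well above it. The median gene had 0.395 per 10 kb in the pluripotency group and 1.78 in the other group. The ranges overlapped, from 0.288 to 2.21 and from 0.346 to 6.30, since Klf2 exceeded Klf3, Klf6 and Klf9. Without Klf2, the density of Klf4 and Klf5 was 0.333. Without Klf16, that of the other 5 was 1.67. Of the 56 H1foo peaks of the other group, 18 lay nearer to another protein-coding gene and 15 overlapped one, against 0 of 7 in the pluripotency group. Part of the higher density was therefore at neighbouring genes. The windows of Klf2, Klf4 and Klf5 hold no other protein-coding gene, so their peaks had none to overlap there. H1foo peaks covered 8.96% of the pluripotency windows and 18.6% of the others.

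The difference was less clear for AE4, which had 4 peaks or 0.484 per 10 kb at the pluripotency genes and 24 or 0.955 at the others. Klf2 held all 4 of the pluripotency group's peaks, and Klf16 held 12 of the 24, without which the density of the others was 0.543. Among peaks scoring at or above the list median, the order turned, with 0.484 for the pluripotency genes and 0.478 for the others. In the pluripotency group 1 of 7 H1foo peaks and 0 of 4 AE4 peaks lay in the genes, which make up 22.7 of the 82.7 kb. In the other group 32 of 56 and 12 of 24 did, where the genes make up 131 of the 251 kb. With 3 and 6 genes chosen with earlier results of these data known, and genes not being replicates, this is a description of these loci.

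Overlap between the lists varied from gene to gene. Of the H1foo peaks at the 9 genes 18 of 63, or 28.6%, overlapped an AE4 peak, against 25.2% of all H1foo peaks within 10 kb of protein-coding genes. Of the AE4 peaks 22 of 28, or 78.6%, overlapped an H1foo peak, against 55.6%. All 4 AE4 peaks at Klf2, all 3 at Klf1 and 11 of 12 at Klf16 did so, against 3 of 6 at Klf13, 1 of 2 at Klf3 and 0 of 1 at Klf6. H1foo peaks covered 28.2%, 50.4% and 58.0% of the windows of Klf2, Klf1 and Klf16. The cover was 16.3% at Klf13, 7.40% at Klf3 and 1.53% at Klf6. An AE4 peak meets an H1foo peak more readily where the cover is wide, and these shares do not allow for that. H1foo peaks that overlapped an AE4 peak had a median score of 133 and the rest 72.6. For AE4 peaks these medians were 73.6 and 52.1. The medians over all member peaks were 82.0 for H1foo and 66.6 for AE4. Klf13 and Klf16 together held 57.1% of the H1foo and 64.3% of the AE4 peaks.

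**Figure D4:**
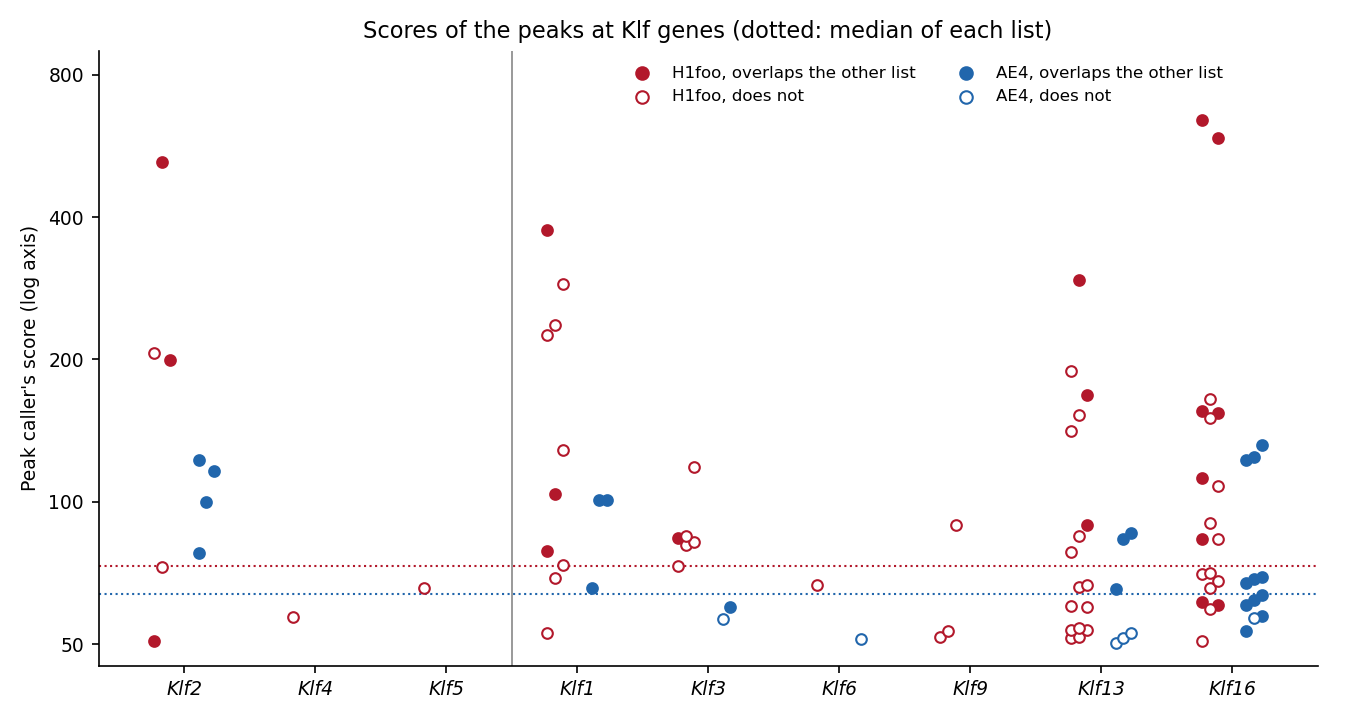
The peak caller's score of every peak at the 9 Klf genes on a log axis, for H1foo (red) and AE4 (blue); filled points overlap a peak of the other list, open points do not, and dotted lines are the medians of the complete lists, 73.2 and 63.8. Scores above 500 occur at Klf2 and Klf16 alone, and the peaks of Klf4, Klf5 and Klf6 lie below the median of their list.

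The edge of the windows passes near some peaks. At Klf2, the peak 9966 bp from the gene with a score of 72.6 was counted and the next, at 10950 bp with a score of 118, was not. At Klf16, H1foo peaks at 9862 bp (score 165) and 11394 bp (99.5) lay on either side of the edge. At Klf1, an H1foo peak at 10041 bp (score 61.4) and an AE4 peak at 10148 bp (88.9) were left out.

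The rest of the family ranged from genes without peaks to genes as dense as Klf1. Of the other 17 Klf and Sp genes, 11 had an H1foo peak and 8 an AE4 peak in their window, against 66.2% and 57.1% of all protein-coding genes. Their median densities were 0.197 and 0 per 10 kb, against 0.406 and 0.162 over all protein-coding genes. Both antibodies lacked peaks at Klf7, Klf8, Klf14, Sp3, Sp5 and Sp8. The densest were Sp2, with 4.23 H1foo and 1.61 AE4 peaks per 10 kb, and Sp6, with 4.17 and 1.92, which lie close together on chromosome 11. Klf12, a repressor in a gene of much greater length, had 3 H1foo and 7 AE4 peaks, so that AE4 outnumbered H1foo there as it did at Klf11, with 1 and 2. In the complete lists, AE4 peaks outnumbered those of H1foo at none of the 9 genes, but the H1foo list is 2.06 times as long. With the H1foo list cut to the length of the AE4 list, AE4 peaks were the more numerous at Klf2, Klf6 and Klf16. The share of all protein-coding genes with more AE4 than H1foo peaks was not computed.

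A list of 12 cofactors and ubiquitin ligases that act on Klf proteins gave 10 genes with an H1foo peak and 9 with an AE4 peak, against the same 66.2% and 57.1% of all genes. The median densities were 0.248 and 0.204 per 10 kb, against 0.406 and 0.162. Hdac2, a histone deacetylase, and Wwp1, a ubiquitin ligase for Klf2 and Klf5, had neither. The densest was Sin3b, a corepressor scaffold on chromosome 8, with 3.46 H1foo and 2.91 AE4 peaks per 10 kb. The corepressors of Klf3 had 33 H1foo and 7 AE4 peaks at Ctbp2 and 5 and 1 at Ctbp1. Sin3a had 4 and 1, none of the AE4 peaks and 1 of the H1foo peaks in the gene.

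Likeness to the pluripotency genes was measured over these 29 genes as the distance in log2(peaks per 10 kb + 1) of H1foo and of AE4, on 2 lists only. Nearest to Klf4 were Klf10 at a distance of 0.056, Btrc at 0.16 and Sin3a at 0.22. Nearest to Klf5 were Klf10 at 0.059, Btrc at 0.079 and Klf15 at 0.11. Klf2 had no close match among them, with Sin3b and Sp6 at 0.69 and Sp2 at 0.71. Sin3b lies inside the 1 Mb taken as the surroundings of Klf2, so both are in the same dense stretch. The other members were not among the genes compared.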

How the data were processed

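Chromatin of mouse embryonic stem cells overexpressing H1foo-GFP was immunoprecipitated with an H1foo antibody (2 libraries) or AE4 (2 libraries). The authors aligned reads to mm10 with Bowtie 1.1.2, per the submitters' processing notes, and called peaks with MACS, per the file headers. The sources used here do not state the depth of each library, how the libraries behind a list were combined, or whether an input was used. The deposited lists give each peak's position and a score, the caller's own value on a scale the files do not name. Scores rank peaks within a list and are not read as amounts of binding.

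Starts were converted to positions counted from 1. Counts used Python 3.11.15, the 21 assembled chromosomes, an overlap of at least 1 bp and the spans of 21774 protein-coding genes (RefSeq, GRCm38.p6; 113 genes on scaffolds were left out). This table has no strand or exons, so peaks in a gene are not divided into exon and intron, and strands come from the promoter table. Density is peaks per 10 kb of window. Surroundings are the 1 Mb around the middle of the gene less its window. The counting was checked on simulated intervals. The members, the family and cofactor lists and the rule for named genes (all members; the densest, sparsest and most alike of the lists, and neighbours with a peak) were chosen with earlier results of these data known; Klf11, Klf12, Ctbp1, Ctbp2 and Sin3a are named in addition, after their values were seen.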

Additional observations from a re-analysis of the deposited data

How the results depend on the processing

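Of 49 recomputed values, 27 stayed within 1.5 times the reported one. Among them were every count of Klf genes with a peak (6 to 9 of 9 for H1foo, 4 to 8 for AE4) and every count of shared peaks. The H1foo count of 6, against 9 reported, lay at that limit. So did the AE4 count of 4, against 6 reported, and the 12 shared H1foo peaks at or above the list median, against 18. The H1foo count of 6 came with the H1foo list cut to the length of the AE4 list, where it equalled the AE4 count of 6. It also came at or above the list median, where AE4 had 4. Shares of all protein-coding genes were computed for the reported windows and the genes alone, and not for the other settings. The counts at those settings therefore describe the 9 genes only. Peak numbers followed the window. They were 33 for H1foo and 12 for AE4 in the genes alone, 38 and 13 with 2 kb on either side, and 189 and 105 with 50 kb. Peaks at or above the median score of their list numbered 37 and 16. The H1foo list cut to the length of the AE4 list had 35 in the windows. Other recounts were chosen after seeing the data. Counting peaks less than 1 kb apart as 1 gave 34 for H1foo and 21 for AE4. Leaving out peaks nearer to another gene gave 45 for H1foo and 18 for AE4.

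The H1foo density of the pluripotency genes against the others was 0.441 against 2.44 in the genes alone, 1.49 against 1.93 with 50 kb, 0.363 against 1.35 at or above the median score, and 0.363 against 1.27 with the shortened list. For AE4 it was 0 against 0.914 in the genes alone, 0.289 against 0.773 with 2 kb, and 0.775 against 1.09 with 50 kb. Leaving out Klf2, Klf1 or Klf16 was also chosen after seeing the data. Without Klf2 the H1foo density was 0.333, against 2.23, or 2.02 without Klf1, and the AE4 density 0, against 0.955, or 0.921 without Klf1. Klf2 is the densest of its group, so leaving it out could only lower the pluripotency density and cannot bear on the order. Under the other settings the pluripotency density was the lower one for H1foo. No setting left out Klf1, Klf13 and Klf16 together. Of the remaining genes of the other group, Klf6 with 0.346 and Klf9 with 0.640 lay below the pluripotency group's 0.847, and Klf3 with 1.22 above it. No paired analysis was possible because the lists hold no value per library, and for the same reason no library could be left out.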
